A study of Mus musculus with 12 samples.

Results

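The liver makes most of the plasma proteins of complement and blood coagulation, and 38 genes for such proteins were followed across the livers of mice on a methionine- and choline-deficient (MCD) diet. The genes were listed by name from their known place in these cascades, with earlier results of these data known, and all 38 were found among the 11791 genes of the table. They hold 4 genes of the lectin pathway, 4 that build the complement convertases, 6 of the terminal pathway, 3 complement inhibitors, 4 of the contact and kinin system, 5 of thrombin generation, 4 of fibrin formation, 4 anticoagulants and 4 of fibrinolysis and its regulation.

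Complement and coagulation are chains of proteases that circulate as inactive precursors, and each step cuts and activates the next. In complement, lectins bound to microbial sugars start cleavage of C4, C2 and C3, and the terminal proteins then assemble into a pore in the target membrane. In coagulation, proteases that need vitamin K-dependent modification in the liver lead to thrombin, thrombin turns fibrinogen into fibrin, and plasmin dissolves it. Hepatocytes secrete nearly all of these proteins, several are acute phase proteins, and a diseased liver can lose the ability to make them.

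RNA-seq was run on 12 pools of liver RNA, each mixed from 2 male C57BL/6 mice aged 10 weeks and fed the MCD diet, which produces steatohepatitis in mice, for 3 weeks. The KO group (4 pools) carried Lyzs-Cre, a Cre recombinase from the lysozyme locus that is active mainly in myeloid cells, and a deletion of p38γ and p38δ (p38g/d in the labels). The anti-Ly6G group (4 pools) carried Lyzs-Cre and received an antibody to Ly6G, a surface protein of neutrophils, and its titles read GR1. The control group (4 pools) carried Lyzs-Cre alone, so the Cre and the diet are shared by all 3 groups. By the labels 12 males of each genotype were fed the diet, more than 4 pools of 2 need. No label says that pools hold different animals, so p-values measure the spread between pools. The labels also name the origin of the mitochondria, which is NZB for every anti-Ly6G pool and KO pools 3 and 4, and C57 for KO pools 1 and 2 and every control pool. Anti-Ly6G treatment and this label therefore cannot be told apart in the comparison with control. A fit with the label as a covariate takes its difference from the KO pools alone, 2 per label. It subtracts that difference from anti-Ly6G against control, so it does not separate label from treatment.

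Levels are given as deposited, as a normalized signal close to RPM (reads scaled to library size, with pools summing to 0.922 to 1.06 M). By the step of its values, each library had 13.1 to 22.3 M reads in the 11791 genes of the table. In these libraries 3 reads corresponded to a signal of 0.125 to 0.242. Such floors cover counting error only. Pools of 1 group differed by more than sampling noise, with a chi-square of 9.61 to 63.0 per gene. All 14 measured hepatocyte markers were present in each group, as were the measured markers of the other liver cell types. The summed markers of each type were present in every pool. In whole liver, fewer cells of a type and less RNA per cell cannot be told apart.

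The 38 genes were among the more abundant liver transcripts. Their control means had a median of 397, against 16.6 for all genes, and the lowest value of any of them in any pool was 23.4. Per kilobase of annotated exon, C3, the protein on which all complement routes converge, was highest in control at 1662 ± 120 (SD, n = 4). The fibrinogen chains followed, Fgg at 1418 ± 311, Fga at 1298 ± 217 and Fgb at 913 ± 170, and the SD ranges of Fga and Fgb met only at their ends. From C3 to Fgg and from Fgg to Fga the difference was smaller than the larger of the SDs. Lowest was Masp1, a protease of the lectin pathway, at 4.40 ± 0.574 per kilobase. Together the 38 genes took 3.46% ± 0.280 of the summed signal in KO, 3.37% ± 0.695 in anti-Ly6G and 3.55% ± 0.241 in control (SD, n = 4 each). The groups overlapped in this share. Reads could be shared with other annotated genes for 8 of the 38, which had under 90% of their 25-base stretches to themselves. These are Masp2 (46.4%), C2 (54.1%), C4b (46.1%, shared with C4a), Cfb (23.6%), Klkb1 (7.22%), Kng1 (69.1%, shared with Kng2), Serpinc1 (63.5%) and Plg (89.2%), and their levels are uncertain.

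**Figure D1:**
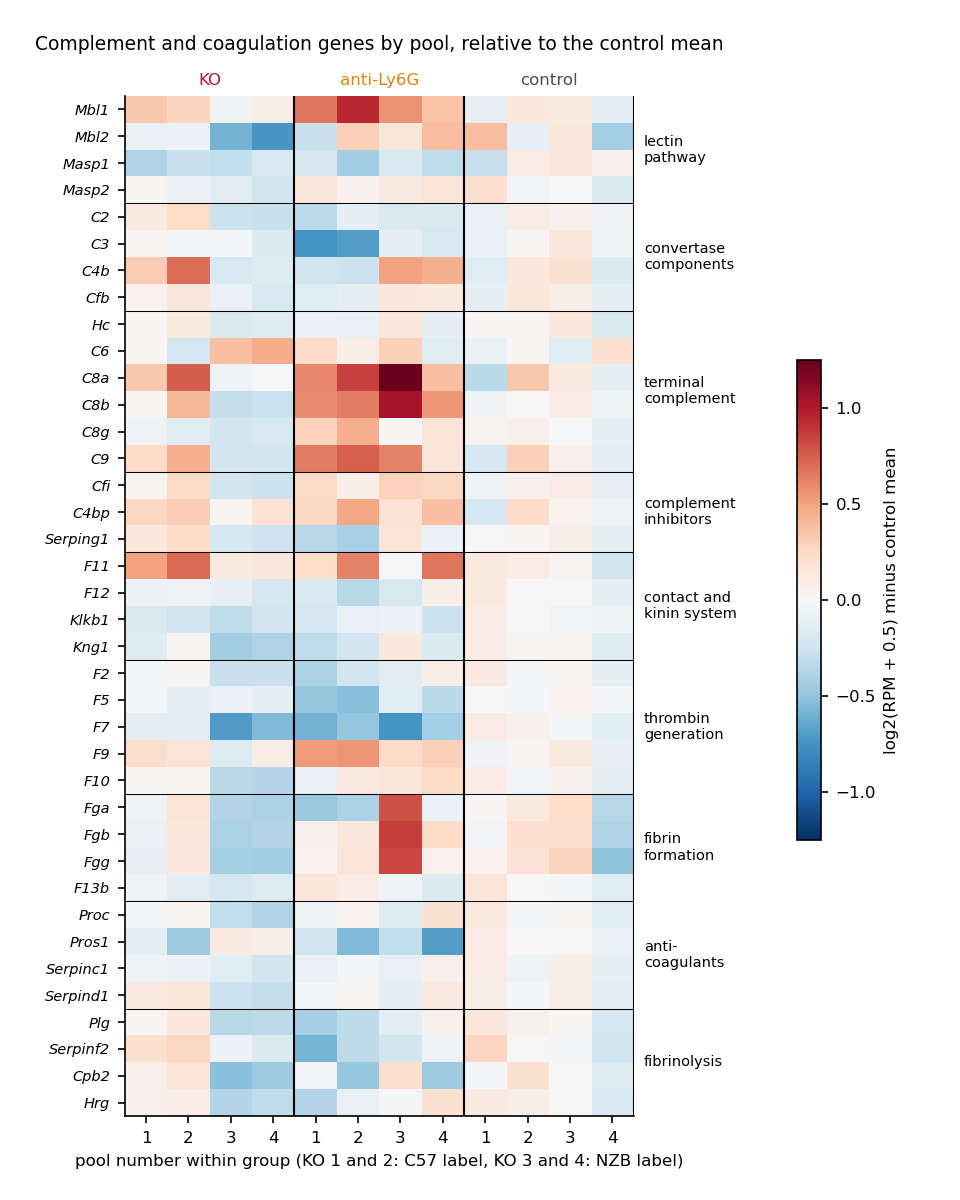
Level of each of the 38 genes in each pool, as log2 of the signal relative to the control mean of that gene. Columns are the 4 KO, 4 anti-Ly6G and 4 control pools and rows are genes grouped by role. KO pools 3 and 4 are lower than KO pools 1 and 2 in most rows, while Mbl1, C8a and C8b are higher in all 4 anti-Ly6G pools than in all 4 control pools.

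In KO against control, the complement and coagulation genes did not pass the test. Of the 38, 0 were higher and 0 lower by limma at an adjusted p under 0.05, 4 had an unadjusted p under 0.05, and edgeR on recovered reads called 0. DESeq2 called Klkb1 lower, and limma with sample weights called Klkb1, Masp1 and F7 lower. The share called by limma among all 11791 genes was 1.12% (0.585% higher, 0.534% lower). The median log2 fold change of the 38 was -0.10, with 9 above 0, and the median of all genes was 0.00 (5852 of 11791 above 0). The 14 measured hepatocyte markers had a median of -0.12, with 2 above 0. With pools scaled to the sum of those markers the median of the 38 was -0.004. With KO pools 1 and 2 alone, which carry the control's mitochondria label, the median of the 38 was 0.05 and 22 were above 0.

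Klkb1 encodes plasma kallikrein, which frees bradykinin from kininogen and activates F12. It had 91.0, 86.5, 82.9 and 88.2 in KO pools 1 to 4, against 110.3, 103, 101 and 99.5 in control pools 1 to 4. All KO pools lay below all control pools, and the log2 fold change was -0.24 ± 0.06 (SE; limma, adjusted p = 0.0757). The row is uncertain, because its identifier (ENSMUSG00000031640, GRCm38 chromosome 8, 45269671 to 45308466, minus strand) is named Gm45753 in GENCODE vM21 and lies over Klkb1. Masp1 had 33.1, 35.5, 34.7 and 37.4 in KO pools, against 35.0, 46.0, 47.5 and 44.5 in control pools, and control pool 1 lay among the KO pools. Its log2 fold change was -0.29 ± 0.09 (SE; limma, adjusted p = 0.135).

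The pools of 2 of the 38 genes did not overlap between KO and control, Klkb1 and F5, both lower in KO, where 12.4% of all genes did not overlap (5.73% higher and 6.62% lower). By role, the log2 fold changes in KO against control ran from -0.37 to 0.16 in the lectin pathway and from -0.05 to 0.16 for C2, C3, C4b and Cfb. They ran from -0.16 to 0.26 in the terminal pathway, -0.05 to 0.20 for the inhibitors, -0.24 to 0.37 in the contact system and -0.38 to 0.08 in thrombin generation. In fibrin formation they ran from -0.20 to -0.14, for the anticoagulants from -0.18 to -0.08 and in fibrinolysis from -0.18 to 0.05.

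**Figure D2:**
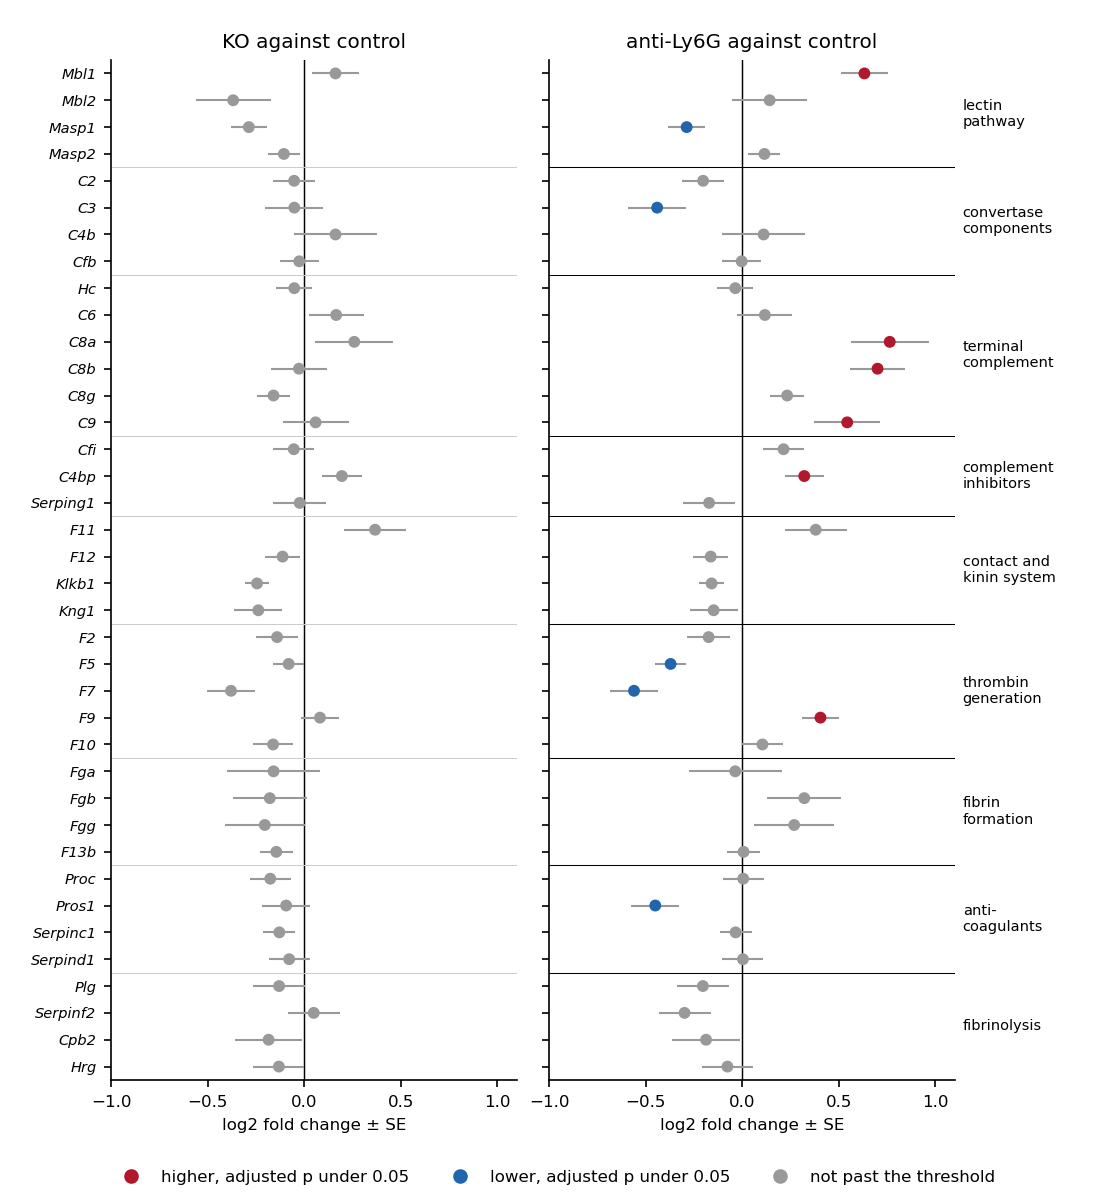
Log2 fold change of each of the 38 genes in KO against control and in anti-Ly6G against control, with its standard error, grouped by role. No gene passes the test in KO against control, and 6 pass upward and 5 downward in anti-Ly6G against control.

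In anti-Ly6G against control, 6 of the 38 genes rose (Mbl1, C8a, C8b, C9, C4bp and F9) and 5 fell (Masp1, C3, F5, F7 and Pros1) by limma at an adjusted p under 0.05, so that 28.9% were called. Of these, C3, F5, F7, Masp1 and C4bp did not pass with the mitochondria label as a covariate. Over all 11791 genes 30.4% were called, 15.1% higher and 15.3% lower, so the share among the 38 was close to that of the liver transcriptome as a whole. The median log2 fold change of the 38 was 0.00, as for all genes. The pools of 10 of the 38 did not overlap, 4 above and 6 below control, where 27.3% of all genes did not overlap.

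In the lectin pathway, 1 of 4 genes rose and 1 fell. The roles hold 3 to 6 genes each, and over all genes 15.1% were called higher and 15.3% lower. Mbl1 (ENSMUSG00000037780, GRCm38 chromosome 14, 41151458 to 41159601, plus strand) encodes mannose-binding lectin A, which recognises sugars on microbes. It had 156, 189, 145 and 126 in anti-Ly6G pools 1 to 4, against 91.5, 107, 106 and 89.1 in control pools 1 to 4. All anti-Ly6G pools were higher than all control pools, 1.55-fold on average (log2 0.63 ± 0.12 SE; limma, adjusted p = 0.00198). KO pools, at 95.3 to 124, overlapped the control pools and lay below all anti-Ly6G pools.

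The protease gene Masp1 (ENSMUSG00000022887, chromosome 16, 23449417 to 23520815, minus strand) had 37.0, 31.7, 37.5 and 34.4 in anti-Ly6G pools, against the control values given above. Control pool 1, at 35.0, lay inside the anti-Ly6G range, and the log2 fold change was -0.29 ± 0.09 (SE; limma, adjusted p = 0.0343). The call was lost without control 2, 3 or 4 or anti-Ly6G 2 or 4 (log2 -0.28 to -0.24). Mbl2, the second mannose-binding lectin, was at 95.9 ± 18.3 in anti-Ly6G and 87.4 ± 20.5 in control (SD, n = 4 each), and Masp2, the protease that cuts C4 and C2, at 187 ± 6.04 and 173 ± 19.2. Neither passed.

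Of the genes that build the convertases, C3 fell and C2, C4b and Cfb did not pass. C3 (ENSMUSG00000024164, chromosome 17, 57203970 to 57228136, minus strand) had 5067, 5267, 7897 and 7411 in anti-Ly6G pools 1 to 4, against 7975, 8608, 9386 and 8215 in control pools. All anti-Ly6G pools were below all control pools, but pools 3 and 4 lay much nearer to control than pools 1 and 2. The log2 fold change was -0.44 ± 0.15 (SE; limma, adjusted p = 0.0399). The call was lost when any control pool was left out and without anti-Ly6G 1 or 2 (log2 -0.47 to -0.34). C4b, the complement C4 gene, was split in the same way, with 670.0 and 649 in anti-Ly6G pools 1 and 2 and 1113 and 1065 in pools 3 and 4, against 693 to 893 in control. The alternative pathway protease Cfb averaged 1067 ± 109 in anti-Ly6G and 1068 ± 99.8 in control (SD, n = 4 each).

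In the terminal pathway, 3 of 6 genes rose and 0 fell, where 15.1% of all genes rose and 15.3% fell. C8a (ENSMUSG00000035031, chromosome 4, 104815679 to 104876398, minus strand) and C8b (ENSMUSG00000029656, chromosome 4, 104766317 to 104804548, plus strand) encode chains of C8 that insert into the membrane, and lie 11.1 kb apart. C8a had 188, 223, 288 and 161 in anti-Ly6G pools, against 97.4, 156, 133 and 114 in control pools. C8b had 133, 138, 181 and 129 in anti-Ly6G pools, against 85.9, 88.0, 94.7 and 85.3 in control pools. Both genes were higher in every anti-Ly6G pool than in every control pool, and highest in pool 3. The changes were 1.70-fold for C8a (log2 0.76 ± 0.20 SE; limma, adjusted p = 0.0124) and 1.63-fold for C8b (0.70 ± 0.14; limma, adjusted p = 0.00299).

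C9, whose copies line the pore (ENSMUSG00000022149, chromosome 15, 6445327 to 6498751, plus strand), had 256, 275, 252 and 183 in anti-Ly6G pools, against 141, 201, 171 and 148 in control pools. Control pool 2 lay above anti-Ly6G pool 4, and the log2 fold change was 0.54 ± 0.17 (SE; limma, adjusted p = 0.0278). This call was lost without control 1 or 4 or anti-Ly6G 1, 2 or 3 (log2 0.47 to 0.52). C8g, the third C8 chain and a lipocalin, was at 225 ± 29.2 in anti-Ly6G and 191 ± 10.1 in control (SD, n = 4 each; log2 0.23; limma, adjusted p = 0.0576) and did not pass. It was called with DESeq2, with a replicate block, with sample weights and without anti-Ly6G 3. Hc, the mouse gene of complement C5, had 565, 561, 662 and 556 in anti-Ly6G pools, against 527 to 655 in control pools. C6, which binds cleaved C5, was at 51.2 ± 6.95 in anti-Ly6G and 47.0 ± 5.23 in control, and neither Hc nor C6 passed.

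Of the complement inhibitors 1 of 3 rose, against 15.1% of all genes. C4bp, which binds C4b and speeds the decay of the convertase (ENSMUSG00000026405, chromosome 1, 130634773 to 130661632, minus strand), had 525, 615, 497 and 570.2 in anti-Ly6G pools, against 377, 519, 453 and 424 in control pools. Control pool 2 lay within the anti-Ly6G range. The log2 fold change was 0.32 ± 0.10 (SE; limma, adjusted p = 0.0294), and the call was lost without control 1 or 4 or anti-Ly6G 2 or 4 (log2 0.25 to 0.30). Cfi, the protease that degrades C3b and C4b, was at 648 ± 42.6 in anti-Ly6G and 559 ± 37.1 in control. Serping1, the C1 inhibitor, was at 487 ± 92.0 in anti-Ly6G and 542 ± 30.9 in control (SD, n = 4 each). Neither passed.

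In the contact and kinin system 0 of 4 genes passed by limma (15 of the 38 had an unadjusted p under 0.05). Klkb1 had 89.3, 97.1, 98.1 and 85.8 in anti-Ly6G pools, all below the control pools (log2 -0.16; limma, adjusted p = 0.0783). F11, a protease that activates F9, was at 37.2 ± 8.0 in anti-Ly6G and 28.1 ± 3.23 in control (0.38; limma, adjusted p = 0.0885). F12, which starts contact activation, and Kng1, the kininogen gene, had log2 fold changes of -0.16 and -0.15.

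Among the genes of thrombin generation 2 of 5 fell and 1 rose, where 15.3% of all genes fell and 15.1% rose. F7, the protease that binds tissue factor and starts coagulation (ENSMUSG00000031443, chromosome 8, 13026034 to 13035809, plus strand), had 39.0, 42.1, 35.1 and 43.9 in anti-Ly6G pools, against 63.6, 61.4, 58.3 and 53.2 in control pools. F5, the cofactor that speeds thrombin formation (ENSMUSG00000026579, chromosome 1, 164151838 to 164220277, plus strand), had 456, 443, 571 and 503 in anti-Ly6G pools, against 634, 626, 653 and 624 in control pools. Both were lower in every anti-Ly6G pool than in every control pool. F7 was at 0.68 times control (log2 -0.56 ± 0.13 SE; limma, adjusted p = 0.00506) and F5 at 0.77 times control (-0.37 ± 0.08; limma, adjusted p = 0.00380). With the mitochondria label as a covariate neither passed, at log2 -0.06 for F7 and -0.35 for F5.

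F9, the protease lacking in haemophilia B (ENSMUSG00000031138, chromosome X, 59999464 to 60030759, plus strand), had 259.6, 262, 212 and 220.4 in anti-Ly6G pools, against 174, 182, 195 and 167 in control pools. It was higher in every anti-Ly6G pool, 1.32-fold (log2 0.41 ± 0.10 SE; limma, adjusted p = 0.00711). F2, the prothrombin gene, was at 1276 ± 175 in anti-Ly6G and 1432 ± 99.0 in control, and F10, the protease that makes thrombin from it, at 321 ± 30.0 in anti-Ly6G and 298 ± 20.2 in control (SD, n = 4 each). F10 starts 1499 bases beyond the end of F7 and had a log2 fold change of 0.10. With the label as a covariate F10 passed (0.49; limma, adjusted p = 0.0428), in the fit where F7 did not.

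The fibrinogen genes did not pass. They lie together on chromosome 3, Fgg at 83007724 to 83015049 and Fga at 83026076 to 83033627 on the plus strand and Fgb at 83040141 to 83049863 on the minus strand. Fga had 2792, 2942, 6716 and 3656 in anti-Ly6G pools, against 3894, 4206, 4521 and 3007 in control pools. Fgb had 3562, 3748, 6253 and 4041 in anti-Ly6G pools, against 3340, 3966, 3989 and 2616 in control pools. Fgg had 2996, 3243, 5175 and 3000 in anti-Ly6G pools, against 3001, 3293, 3532 and 2048 in control pools. Anti-Ly6G pool 3 was highest of all 12 pools for each of the 3 chains, and control pool 4 was the lowest control pool for each. The log2 fold changes were -0.04 ± 0.24 for Fga, 0.32 ± 0.19 for Fgb and 0.27 ± 0.21 for Fgg (SE; limma, adjusted p = 0.926, 0.221 and 0.341). Without anti-Ly6G 3 the value for Fga was -0.31 and remained short of the threshold. F13b, the carrier chain of the fibrin-crosslinking enzyme, was at 172 ± 17.1 in anti-Ly6G and 171 ± 16.3 in control.

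The sequences upstream of the fibrinogen starts are shown because the 3 genes are neighbours whose levels were high in the same pool. They are RefSeq promoters on GRCm38.p6 read on the gene's strand, 250 bases long, or 173 for Fga, where bases past an annotated start were removed. Capitals mark matches on either strand to the letters TTGCNNAA (a C/EBP-type motif) and TTCNNNGAA (a STAT-type motif), of which none overlapped another. The windows are chr3:83025903-83026075 (plus strand) for Fga, chr3:83049864-83050113 (minus strand) for Fgb and chr3:83007474-83007723 (plus strand) for Fgg.
Fga: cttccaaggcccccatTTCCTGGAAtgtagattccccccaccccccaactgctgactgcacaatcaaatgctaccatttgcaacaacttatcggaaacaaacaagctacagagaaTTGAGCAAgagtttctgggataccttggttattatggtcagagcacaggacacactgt
Fgb: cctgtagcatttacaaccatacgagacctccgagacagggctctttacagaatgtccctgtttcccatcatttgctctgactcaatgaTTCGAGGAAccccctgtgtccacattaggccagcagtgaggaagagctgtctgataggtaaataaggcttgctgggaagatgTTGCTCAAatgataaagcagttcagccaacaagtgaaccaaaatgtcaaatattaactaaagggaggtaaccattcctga
Fgg: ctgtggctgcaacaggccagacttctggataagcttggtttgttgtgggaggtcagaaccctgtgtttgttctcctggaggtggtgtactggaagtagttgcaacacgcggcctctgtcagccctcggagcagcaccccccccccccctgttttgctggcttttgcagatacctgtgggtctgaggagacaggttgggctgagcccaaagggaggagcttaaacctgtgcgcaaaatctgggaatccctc

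The Fga and Fgb windows each held 1 C/EBP-type and 1 STAT-type match. The Fgg window held none of these, and no window held TATAAA, the core of a promoter box that places the polymerase. The 77 bases removed from the Fga window, next to its RefSeq start, were not searched. In 32851 RefSeq promoters cut to 250 bases, 9.56% held the C/EBP-type letters, 7.02% the STAT-type and 12.4% TATAAA, and cut to 173 bases 7.13%, 5.07% and 8.16%. Of the 38 genes 29 had a promoter in the table, with 30 promoters between them, of which 26.7%, 20% and 6.67% held these letters within 250 bases. A match is a description of the letters and not a binding site.

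Next to the fibrinogen genes stand the 3 of lowest p in anti-Ly6G against control, Mbl1 and C8b, which rose, and F5, which fell. Their windows are chr14:41151206-41151455 for Mbl1, chr4:104766067-104766316 for C8b and chr1:164151585-164151834 for F5, all on the plus strand and 250 bases long.
Mbl1: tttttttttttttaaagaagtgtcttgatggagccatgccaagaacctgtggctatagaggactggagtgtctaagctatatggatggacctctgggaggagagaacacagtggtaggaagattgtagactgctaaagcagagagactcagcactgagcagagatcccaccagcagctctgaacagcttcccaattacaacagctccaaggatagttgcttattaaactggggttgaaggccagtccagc
C8b: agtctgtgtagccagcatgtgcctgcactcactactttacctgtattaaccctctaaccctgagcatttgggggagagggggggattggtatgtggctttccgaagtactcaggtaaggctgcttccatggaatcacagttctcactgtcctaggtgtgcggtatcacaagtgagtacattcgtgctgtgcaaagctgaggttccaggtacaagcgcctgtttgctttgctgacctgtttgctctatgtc
F5: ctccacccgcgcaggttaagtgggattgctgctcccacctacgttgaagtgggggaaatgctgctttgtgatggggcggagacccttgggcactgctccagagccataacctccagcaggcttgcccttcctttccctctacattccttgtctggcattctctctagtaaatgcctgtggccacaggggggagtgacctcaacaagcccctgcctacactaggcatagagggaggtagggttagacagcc
The windows of C8b, Mbl1 and F5 held none of these 3 motifs.

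Among the anticoagulants 1 of 4 fell, against 15.3% of all genes. Pros1, protein S, the cofactor of activated protein C (ENSMUSG00000022912, chromosome 16, 62854307 to 62929346, plus strand), had 77.3, 62.3, 74.3 and 56.7 in anti-Ly6G pools, against 98.7, 91.5, 91.8 and 85.9 in control pools. Every anti-Ly6G pool lay below every control pool (log2 -0.45 ± 0.12 SE; limma, adjusted p = 0.0147). The other three did not pass and had log2 fold changes of 0.01 for Proc, the protein C gene, -0.03 for Serpinc1, antithrombin, and 0.00 for Serpind1, heparin cofactor II. In fibrinolysis 0 of 4 genes passed by limma, and all 4 had negative values. They were -0.30 for Serpinf2, the inhibitor of plasmin, -0.20 for Plg, the precursor of plasmin, -0.19 for Cpb2, a carboxypeptidase that protects fibrin from plasmin, and -0.08 for Hrg, a plasma glycoprotein that binds plasminogen. With the mitochondria label as a covariate all 4 turned, to 0.06 for Serpinf2, 0.21 for Plg, 0.41 for Cpb2 and 0.34 for Hrg, and 0 of 4 passed by limma. Serpinf2 was called with plain library totals, sample weights or hepatocyte scaling and without anti-Ly6G 4.

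**Figure D3:**
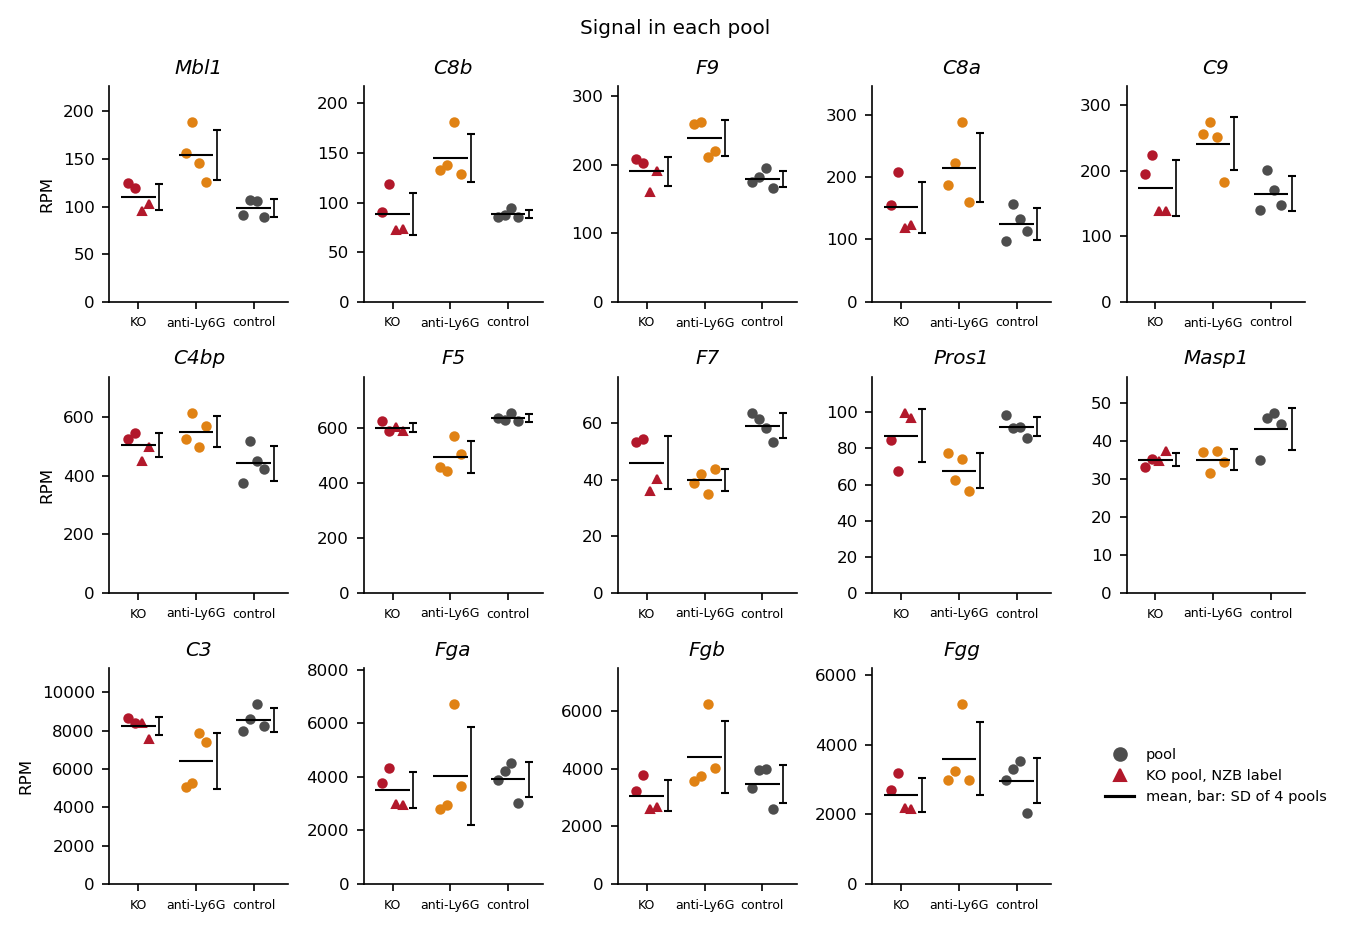
Signal (RPM) of the 11 genes that passed in anti-Ly6G against control and of the 3 fibrinogen genes, 1 point per pool (triangles for KO pools of the NZB label), with a line at the mean and a bar for the SD of 4 pools. For Mbl1, C8a, C8b, F9, F5, F7, Pros1 and C3 no anti-Ly6G pool reaches the control range, while Masp1, C9 and C4bp overlap, and anti-Ly6G pool 3 is the highest point for Fga, Fgb and Fgg.

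The calls differed in how much they depended on single pools and on scaling. Mbl1, C8a and C8b passed in every fit run. F9 and Pros1 were lost in a single fit, with pools scaled to the sum of the hepatocyte markers (log2 0.30 for F9 and -0.55 for Pros1). Masp1, C3 and C4bp were also lost with the covariate (-0.36, -0.34 and 0.50) or when KO pools were left out of the fit, Masp1, C9 and C4bp with hepatocyte scaling (-0.39, 0.44 and 0.22), and C4bp with sample weights (0.28). Without control 4 or without anti-Ly6G 2 the number of the 38 called was 7, and scaled to hepatocyte markers it was 7. With the mitochondria label as a covariate, estimated from the KO pools alone, it was 9, with 8 higher and 1 lower, and the median of the 38 was 0.31. Over all 11791 genes that fit called 973, with 517 higher and 456 lower. That fit also called Cfi (0.60; limma, adjusted p = 0.0203), F11 (0.86; limma, adjusted p = 0.0457) and F10.

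In KO against anti-Ly6G, 6 of the 38 genes were called by limma, 2 higher and 4 lower in KO, where 26.8% of all genes were called. The balance turned with the fit, at 6 higher and 1 lower scaled to hepatocyte markers, 4 higher and 3 lower with plain library totals, and 1 higher and 13 lower with the covariate. Over all genes these fits called 2143 higher and 272 lower, 2333 and 701, and 1246 and 1128, in that order. Higher in KO were F5, at 600.2 ± 17.1 in KO and 493 ± 58.1 in anti-Ly6G (log2 0.29; limma, adjusted p = 0.0160), and Pros1, at 87.1 ± 14.7 in KO and 67.6 ± 9.75 in anti-Ly6G (0.36; limma, adjusted p = 0.0465; SD, n = 4 each). Lower in KO were C8b at 88.6 ± 21.6 in KO and 145 ± 24.1 in anti-Ly6G (-0.73; limma, adjusted p = 0.00259), and C8g at 171 ± 9.64 in KO and 225 ± 29.2 in anti-Ly6G (-0.39; limma, adjusted p = 0.00539). Mbl1 (-0.47; limma, adjusted p = 0.0115) and F9 (-0.32; limma, adjusted p = 0.0251) were also lower in KO. This comparison shares the anti-Ly6G pools with the preceding one. The F5 call was lost without anti-Ly6G 2 (0.24), F9 without KO 3 or anti-Ly6G 1 or 2 (-0.28 to -0.24), and Pros1 without KO 1, 3 or 4 or anti-Ly6G 2 or 4 (0.28 to 0.37), and the count was 11 without KO 2 and 3 without anti-Ly6G 2. Scaled to hepatocyte markers C8g (-0.19), Mbl1 (-0.27) and F9 (-0.12) did not pass, nor did F9 with plain library totals (-0.21), F5 with the covariate (0.28) or Pros1 without the control pools in the fit (0.36).

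Within the KO group most of these genes split by the mitochondria label, a comparison added after the values were seen. In 32 of 38 genes both NZB pools (KO 3 and 4) lay below both C57 pools (KO 1 and 2), and in 2, C6 and Pros1, they lay above. Among all genes the NZB pools lay below in 26.9% and above in 27.0%. The median log2 difference of NZB minus C57 pools was -0.35 over the 38 genes, 0.01 over all genes and -0.24 over 14 hepatocyte markers, of which 8 were below. With 2 pools per label, a model with group and label called 0 of the 38 and 0 of all genes by limma. At an unadjusted p under 0.05 it had 17 of the 38 lower and 2 higher, where 4.73% of all genes were lower and 5.11% higher, and edgeR called 0. At that unadjusted threshold 12 of the 38 were lower with plain library totals (2.09% of all genes), and 0 were lower and 2 higher by limma scaled to hepatocyte markers (0.772% of all genes lower and 13.1% higher).

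Of fibrinogen, Fga was at 2998 and 2940 in the NZB pools and 3749 and 4344 in the C57 pools. Its unadjusted p for the label was 0.199 (limma, model with group and label). The control pools, all of the C57 label, ran from 3007 to 4521 for Fga. Cpb2 had 128 and 135 in the NZB pools and 193 and 207 in the C57 pools, and C4b had 682 and 700.2 in the NZB pools and 977 and 1271 in the C57 pools. C4b had the lowest difference of the 38 at log2 -0.69, and C6 the highest at 0.51, with 61.1 and 64.8 in the NZB pools and 47.8 and 40.5 in the C57 pools. The summed signal of the table was 0.926 and 0.922 M in the NZB pools and 1.00 and 0.993 M in the C57 pools. With plain library totals the median of the 38 was -0.24 and that of all genes 0.11, and scaled to hepatocyte markers they were -0.12 and 0.24. The part of scaling, of hepatocyte content and of the label in this split was not tested. All anti-Ly6G pools carry the NZB label, and their log2 fold changes against control had a median of 0.00 over the 38. Label and antibody differ together in that comparison, so this value does not describe the label.

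**Figure D4:**
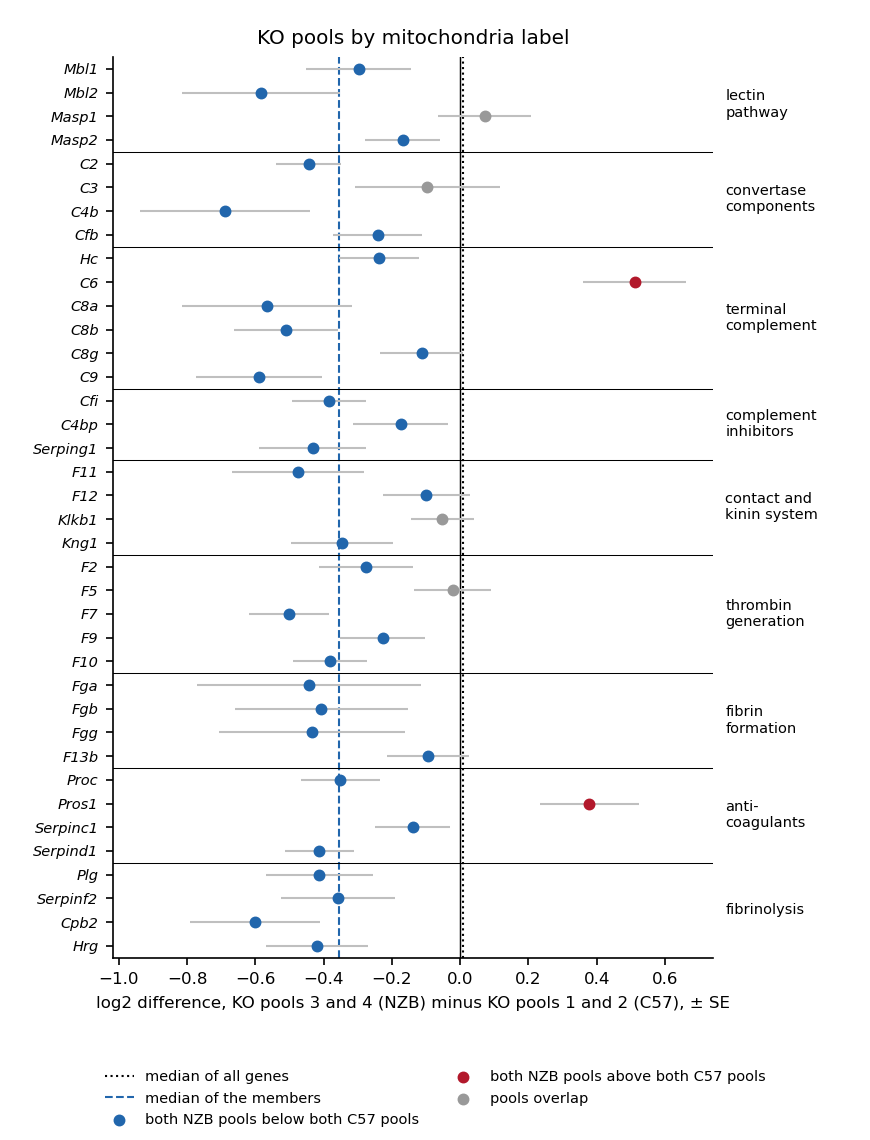
Log2 difference between the NZB-labelled KO pools (3 and 4) and the C57-labelled KO pools (1 and 2) for each of the 38 genes, with its SE and the medians of the 38 genes and of all genes as lines. The 38 genes center on -0.35 and all genes on 0.01, and C6 and Pros1 lie above 0 with no overlap between pools.

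Other genes of the pathways were counted in a list of 54, of which 46 were measured. In KO against control 1 rose and 0 fell. Anxa2, a cell surface receptor of plasminogen, was at 72.8 ± 3.38 in KO and 46.6 ± 9.94 in control (SD, n = 4 each; log2 0.67; limma, adjusted p = 0.0415). The call was lost without control 1, 2 or 3 and when any KO pool was left out (0.50 to 0.70). It was also lost with the mitochondria label as a covariate, with KO pools 1 and 2 alone and with a replicate block. The same held without the anti-Ly6G pools in the fit and with hepatocyte scaling. F3, tissue factor, which starts coagulation, was at 4.40 ± 0.539 in KO and 6.74 ± 1.64 in control (-0.54; limma, adjusted p = 0.115). C5ar1, a receptor of the C5a peptide, was at 6.95 ± 1.52 in KO and 4.28 ± 1.56 in control (0.67; limma, adjusted p = 0.127).

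In anti-Ly6G against control 5 of these 46 rose and 15 fell, with a median log2 fold change of -0.15. Of all genes 15.1% rose and 15.3% fell. Those that fell included 6 of 9 membrane regulators and receptors and 4 of 11 cell-associated genes of coagulation and fibrinolysis, which are made by leukocytes, endothelium and other cells. Plaur, the urokinase receptor, was at 1.76 ± 0.325 in anti-Ly6G and 5.08 ± 1.35 in control (-1.28; limma, adjusted p = 0.000268). Itgam, a chain of complement receptor 3 on myeloid cells, was at 2.49 ± 0.694 in anti-Ly6G and 9.19 ± 4.06 in control (-1.62; limma, adjusted p = 0.00126), with 30.7% of its 25-base stretches unique. Anxa2 rose, at 82.3 ± 10.9 in anti-Ly6G and 46.6 ± 9.94 in control (0.83; limma, adjusted p = 0.000940). With the mitochondria label as a covariate Plaur (-0.93), Itgam (-0.95) and Anxa2 (0.75) did not pass.

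Of 4 measured genes of the vitamin K cycle, which modifies F2, F7, F9, F10, Proc and Pros1, 0 passed by limma in KO against control. Nqo1, a quinone reductase, fell in anti-Ly6G, at 8.71 ± 0.963 in anti-Ly6G and 12.6 ± 1.52 in control (-0.51; limma, adjusted p = 0.00538), and did not pass with the mitochondria label as a covariate (-0.39). Vkorc1, the vitamin K epoxide reductase, and its paralog Vkorc1l1 did not pass in anti-Ly6G, at 0.03 and 0.22. Ggcx, the carboxylase itself, was at 25.9 ± 1.48 in KO and 22 ± 3.22 in control and did not pass, and the KO values of Nqo1 and Vkorc1 were -0.20 and -0.13. Of 14 transcription factors of liver plasma protein genes, Foxa3, a hepatic forkhead factor, rose in KO (0.76; limma, adjusted p = 0.0415), a call lost without control 1 or 2 and when any KO pool was left out (0.62 to 0.86). This KO call was also lost with the covariate, KO pools 1 and 2 alone, a replicate block, the anti-Ly6G pools left out or hepatocyte scaling. Next in p were Gabpa (-0.15), an ETS family factor, and Cebpd (0.35), a C/EBP factor, and neither passed in KO. In anti-Ly6G 3 of the 14 rose, where 15.1% of all genes rose. Foxa3 was at 44.0 ± 3.09 in anti-Ly6G and 19.6 ± 5.24 in control (1.18; limma, adjusted p = 0.000220). Cebpa, which binds C/EBP motifs, rose (0.43; limma, adjusted p = 0.0151), a call lost with hepatocyte scaling. Nr1h4, the bile acid receptor, rose (0.27; limma, adjusted p = 0.0412), but the call was lost without control 1 or 2 or any anti-Ly6G pool (0.16 to 0.30), with edgeR on recovered reads and in 5 other fits.

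Of 25 genes listed for the acute phase, 1 rose and 0 fell in KO. This was Il1rn, an interleukin-1 antagonist (0.73; limma, adjusted p = 0.0459), and the call was lost without control 1, 2 or 3 and when any KO pool was left out (0.57 to 0.80). The Il1rn call was also lost with the covariate, KO pools 1 and 2 alone, a replicate block, the anti-Ly6G pools left out or hepatocyte scaling. Socs3 (-0.60) and Hamp (-0.69), the gene of the iron hormone hepcidin, did not pass in KO. In anti-Ly6G 3 rose and 3 fell, where 15.1% of all genes rose and 15.3% fell. The median log2 fold change of the 25 was 0.08, with 14 above 0. The 3 of lowest p all fell. These were Socs3, a brake on cytokine signalling (-0.97; limma, adjusted p = 0.00434), Saa3, a serum amyloid A (-1.24; limma, adjusted p = 0.00523), and Lbp, which binds lipopolysaccharide (-0.64; limma, adjusted p = 0.00538). None of these 3 calls held with the label as a covariate, at -0.92 for Socs3, -0.49 for Saa3 and -0.24 for Lbp.

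Cell type markers were read in the same fits, and in anti-Ly6G against control 15.1% of all genes were called higher and 15.3% lower. The summed signal of 14 hepatocyte markers was 120479 to 148384 in KO, 126237 to 167400 in anti-Ly6G and 129604 to 150160 in control. Of the 14, Apoc3 rose (0.54) and Cps1 fell (-0.79) in anti-Ly6G, Ahsg (0.33) did not pass, and 0 passed in KO by limma. The sum of 12 macrophage and Kupffer cell markers was 973 to 1029.6 in KO, 482 to 750.4 in anti-Ly6G and 712 to 1047 in control, and 6 of the 12 fell in anti-Ly6G, led by Marco (-2.06), Cd68 (-1.27) and Csf1r (-0.74). The sum of 4 measured of 12 neutrophil markers was 17.4 to 20.9 in KO, 6.30 to 10.7 in anti-Ly6G and 12.5 to 21.4 in control, and 3 of the 4 fell in anti-Ly6G, S100a8 (-1.35), S100a9 (-1.58) and Csf3r (-0.58).

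Among 9 stellate cell markers 5 fell in anti-Ly6G, with sums of 494 to 611 in KO, 293 to 444 in anti-Ly6G and 392 to 556 in control, and lowest in p were the collagen genes Col1a2 (-1.32), Col1a1 (-1.59) and Col3a1 (-1.29). Among 8 endothelial markers 3 fell, Stab1 (-0.49), Cdh5 (-0.56) and Kdr (-0.52). Both measured bile duct markers, Sox9 (-0.65) and Spp1 (-0.61), and both measured T, NK and B cell markers, Cd79a (-1.12) and Cd79b (-0.69), fell. With the mitochondria label as a covariate Cd68, Csf1r, Csf3r, Col1a1, Col1a2, Col3a1, Spp1 and Cd79b did not pass, and scaled to hepatocyte markers Cdh5, Kdr and Csf3r did not. Single pools decided the calls of Csf3r (lost without control 2 or 4 or anti-Ly6G 2 or 4), Spp1 (without control 4 or anti-Ly6G 4) and Kdr (without any control pool or anti-Ly6G 1, 2 or 4).

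In KO against control 0 genes of these 7 marker lists passed by limma. The values of lowest p were -0.21 for Asgr1, -0.21 for Apoc3 and -0.19 for Rbp4 among hepatocyte markers, and -0.38 for Timd4 and 0.25 for C1qa among macrophage markers, where Lyz2 was at 197 ± 51.2 in KO and 95.2 ± 49.2 in control (SD, n = 4 each). They were 0.34 for Csf3r, 0.17 for S100a9 and 0.13 for S100a8 among neutrophil markers, and -0.74 for Kdr, -0.26 for Stab2 and -0.41 for Cdh5 among endothelial markers. Stellate cell markers had 0.51 for Pdgfrb, 0.88 for Col1a1 and 0.65 for Col1a2, bile duct markers 0.57 for Spp1 and -0.20 for Sox9, and lymphocyte markers -0.26 for Cd79a and 0.05 for Cd79b. Kdr and Pdgfrb passed in 5 other fits each, Col1a1 and Col1a2 in 3 and Spp1 in 2. None of the measured markers was at 0 in all pools of a group. Their part in the changes of the complement and coagulation genes was not tested, and scaled to the hepatocyte markers 7 of the 38 genes were called in anti-Ly6G against control, 3 higher and 4 lower.

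**Figure D5:**
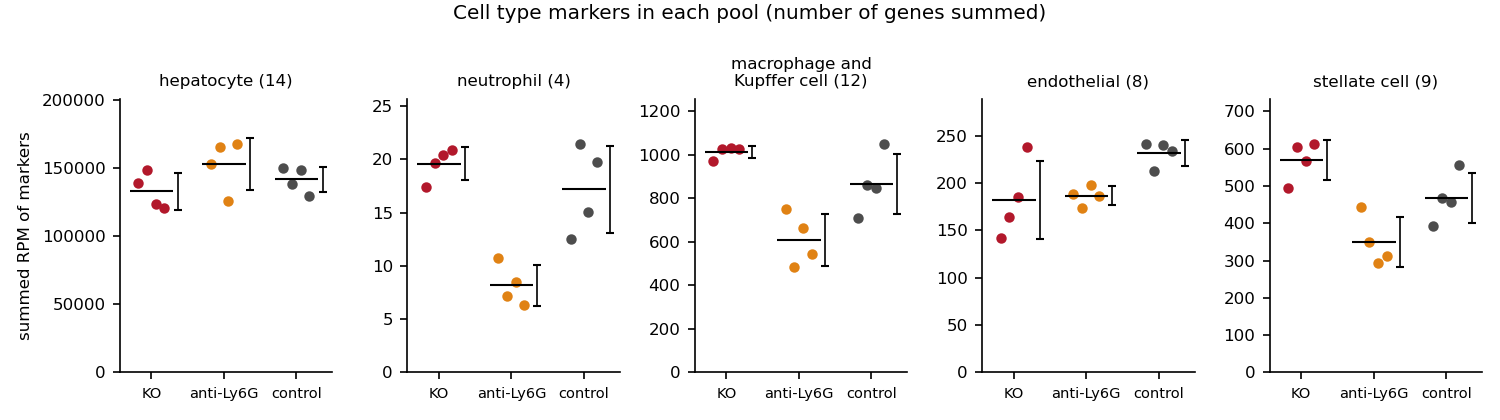
Summed signal (RPM) of the measured markers of 5 cell types in each pool of KO, anti-Ly6G and control. Lines are means and bars the SD of 4 pools. Hepatocyte sums overlap between the 3 groups, neutrophil sums are lower in all anti-Ly6G pools than in all control pools, and the macrophage sum of anti-Ly6G pool 1, at 750.4, lies within the control range.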

How the data were processed

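Libraries came from total liver RNA (integrity score of at least 7) and were run on a Genome Analyzer IIx, per the labels' protocols. For every gene the authors deposited a normalized signal. The submitters' processing notes name GRCm38, Bowtie2 2.0.6, edgeR, RSEM 1.2.3 and cutadapt 1.2.1 with no roles. How reads of near-identical genes were assigned, and whether strand was used, is not given in the sources used here. Each value was a whole multiple of the value of 1 read (100% within 0.02), and a stricter check passed in 4 of 12 columns.

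Tests were limma-trend fits (limma 3.58.1, R 4.3.3) on log2(signal + 0.5), a scale that understates changes of low genes, with a term for group alone over 12 libraries and Benjamini-Hochberg adjustment over 11791 genes at 0.05. A filter on a mean of at least 1 removed 0 genes. Alternatives were edgeR 4.0.16 and DESeq2 1.42.0 on recovered reads, other scalings, terms and filters, and each pool left out. Scripts were tested on simulated data. The members and lists were chosen with earlier results of these data known. Values by pool are given for genes passing in a comparison with control, or the 2 of lowest p where fewer passed, and the 3 genes of lowest p of each other list are named. A further transcription factor of these lists is not reported here. Other genes given by pool (Hc, C4b, C6, Cpb2 and the fibrinogen genes) were chosen after their values were seen or for their promoters. Coordinates are from GENCODE vM21 (GRCm38; 11665 IDs found) and promoters from RefSeq GRCm38.p6.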

Additional observations from a re-analysis of the deposited data

Results flagged for a closer look

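Each of the 38 genes was checked in each of the 3 groups for a pool far from the other three, which gave 114 groups, and 2 stood out. Chance alone marks about 1 in 20 groups, and here 1.75% were marked. Both were anti-Ly6G pool 3. Its Fgg, the gamma chain of fibrinogen, was at 5175, and the other anti-Ly6G pools lay between 2996 and 3243. Its Hc, complement C5, was at 662, and the other anti-Ly6G pools lay between 556 and 565. The same pool was highest for Fga, Fgb, C8a and C8b, and its hepatocyte marker sum of 126237 was the lowest of the 4 anti-Ly6G pools.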

How the results depend on the processing

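Genes called numbered 132 in KO against control, 3580 in anti-Ly6G against control and 3157 in KO against anti-Ly6G as reported. In KO against control the count was 577 with DESeq2, 79 with mitochondria label as covariate, 803 with sample weights, 58 with KO 1 and 2 alone, 14 scaled to hepatocyte markers and 3 to 319 with 1 pool left out. A replicate block gave 20. Same-numbered pools deviated together weakly or not at all (correlations -0.209 to 0.172, 4 of 12 over 0.1, 5 of 12 best with their own number). Between KO and control the correlations were 0.011 to 0.129. Such small values cannot decide whether the numbers pair the pools. No count for the 38 genes moved by over 1.5 times under the block. In anti-Ly6G against control the count was 973 with the covariate and 2031 scaled to hepatocyte markers, and in KO against anti-Ly6G 2041 with KO 3 and 4 alone. Of the 38 genes, DESeq2 called 1 and sample weights 3 in KO against control. In anti-Ly6G against control 7 were called scaled to hepatocyte markers and 7 to 12 with 1 pool left out. In KO against anti-Ly6G it was 12 with DESeq2, 14 with the covariate, 11 with KO 3 and 4 alone, 12 with sample weights and 3 to 11 with 1 pool left out. The cause was not tested.

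Plain library totals gave 123 higher and 37 lower in KO against control, 1267 and 1977 in anti-Ly6G against control and 2333 and 701 in KO against anti-Ly6G. Hepatocyte scaling, added after the data were seen, gave 528 and 1503 in anti-Ly6G against control and 2143 and 272 in KO against anti-Ly6G, and moved the median gene to -0.10 and 0.18 on the log2 scale. The covariate and the single-label fits gave 25 higher and 54 lower and 13 and 45 in KO against control.

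Of 511 values of named members in other fits, 445 kept direction and side of the threshold, 50 lost the call, 3 gained it and 13 turned. In KO against control Fga turned to 0.063, Fgb to 0.026 and Fgg to 0.014 with the covariate or KO 1 and 2 alone. In anti-Ly6G against control Fga turned to 0.043 with edgeR, 0.040 with DESeq2 and 0.41 with the covariate, and with 1 pool left out it lay between -0.31 and 0.11, above 0 without control 2 or 3 or anti-Ly6G 1 or 2. With 1 pool left out in KO against control, S100a9 lay between -0.061 (without control 1) and 0.35, and Cd79b between -0.056 (without control 2) and 0.14, also below 0 without KO 3. In anti-Ly6G against control Vkorc1 turned to -0.013 with plain totals and -0.073 scaled to hepatocyte markers, and lay between -0.018 (without anti-Ly6G 2) and 0.079 with 1 pool left out. The fit with no filter was identical, since the filter removed 0 genes, and was not run apart.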

Other observations

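The chains of fibrinogen are assembled in equal numbers, so the ratio of their genes was computed in each pool after the values had been seen. Fga over Fgb was 0.784, 0.785, 1.07 and 0.905 in anti-Ly6G pools 1 to 4, against 1.17, 1.06, 1.13 and 1.15 in control pools. The anti-Ly6G mean was 0.887 ± 0.137 and the control mean 1.13 ± 0.0464 (SD, n = 4 each), with p = 0.0571 in an exact two-sided permutation test whose smallest possible value is 0.0286. In KO the ratio was 1.14 ± 0.0260 (p = 0.629 against control in the same exact permutation test). Fgg over Fgb was 0.819 ± 0.0534 in anti-Ly6G, 0.833 ± 0.0159 in KO and 0.849 ± 0.0532 in control. These are 4 ratio tests, and none reached 0.05 before adjustment.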
